A study of Homo sapiens with 12 samples.

Results

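The transcripts of 9 genes of mitosis, MKI67, TOP2A, AURKA, AURKB, PLK1, CENPE, CENPF, KIF11 and NUMA1, were followed in maps of N6-methyladenosine (m6A) from NOMO-1, a line of human acute myeloid leukaemia cells. The members were every window that the authors' deposited tables list under these 9 names, 298 of 296568 windows and 9 of 16417 genes. The genes were chosen by the log2 fold changes and FDRs that these tables give for their windows, so those values are given as a description and not as a test. The cells carried guide sgMETTL16-1 or guide sgMETTL16-2, both meant to knock out the RNA methyltransferase METTL16, or the control guide sgNS. All cultures had been infected with lentivirus and kept in puromycin, and none had a further treatment. The labels do not say whether a guide's cells were 1 clone or a mixed culture. Each of the 3 guides had 2 libraries of polyadenylated RNA before enrichment (input) and 2 of the RNA pulled down by an m6A antibody (immunoprecipitation, IP).

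All values below come from the authors' deposited tables, 4 in all, 1 for each METTL16 guide and replicate number, named here by guide and replicate. A row is a stretch of a transcript, called a window here, and carries a ratio of IP to input (fold enrichment) and the log2 fold change of that ratio between a METTL16 guide and sgNS. A log2 fold change below 0 was read as less m6A in the METTL16 guide, which the column names imply and the tables do not state, and under the opposite reading every direction below would turn round. A window was enriched when the false discovery rate (FDR) of IP over input was under 0.05, and called lower or higher when the FDR of the difference was under 0.05. The tables hold no value per library, so depth is unknown and no value has a replicate error of its own. The sources used here do not say which sgNS libraries each table used, and both guides of a replicate number may share them. The tables give no RNA level, so proliferation itself, the loss of METTL16, and the share of cells in mitosis were not measured. In a bulk culture, fewer cells in mitosis and less RNA per cell cannot be told apart.

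The 9 proteins act together when a cell divides. The MKI67 product, Ki-67, coats mitotic chromosomes and is the standard marker of proliferating cells, and TOP2A untangles DNA before chromosomes part. AURKA, AURKB and PLK1 are kinases that drive spindle assembly, chromosome attachment and division, CENPE and CENPF work at the kinetochore, where chromosomes meet the spindle, KIF11 is the motor that pushes spindle poles apart, and NUMA1 focuses microtubules at the poles. m6A in messenger RNA is known to gather in long internal exons and near stop codons and is mostly laid down by METTL3 with METTL14. METTL16 is known for methylating U6 small nuclear RNA and hairpins of MAT2A messenger RNA.

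Many genes of late cell cycle share a pair of promoter elements, the CCAAT box and the cell cycle genes homology region, whose core is TTTGAA. The 250 bases before the start are shown for the 4 members that hold both, from RefSeq on GRCh38.p14, 5′ to 3′ on the gene's own strand, with TTTGAA and CCAAT on either strand (TTCAAA and ATTGG on the other) in capitals. The MKI67 bases lie at chr10:128126424-128126673 (minus strand), those of TOP2A at chr17:40417897-40418146 (minus strand), those of PLK1 at chr16:23678639-23678888 (plus strand) and those of KIF11 at chr10:92592880-92593129 (plus strand).
MKI67: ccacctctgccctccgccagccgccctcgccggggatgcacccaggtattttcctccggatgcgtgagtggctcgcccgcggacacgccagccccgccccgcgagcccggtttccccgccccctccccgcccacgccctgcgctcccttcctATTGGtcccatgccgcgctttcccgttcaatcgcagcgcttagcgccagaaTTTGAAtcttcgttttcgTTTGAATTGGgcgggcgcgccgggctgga
TOP2A: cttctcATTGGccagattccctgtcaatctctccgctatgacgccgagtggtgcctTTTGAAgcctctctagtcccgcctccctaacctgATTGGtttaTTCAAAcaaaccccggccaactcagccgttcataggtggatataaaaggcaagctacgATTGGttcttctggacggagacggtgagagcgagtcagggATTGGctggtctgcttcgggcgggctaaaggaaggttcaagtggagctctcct
PLK1: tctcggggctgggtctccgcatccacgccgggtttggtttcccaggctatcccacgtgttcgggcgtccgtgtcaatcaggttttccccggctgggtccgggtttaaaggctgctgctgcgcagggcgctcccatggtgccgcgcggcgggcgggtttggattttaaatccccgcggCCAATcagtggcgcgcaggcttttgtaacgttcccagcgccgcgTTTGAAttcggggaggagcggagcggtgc
KIF11: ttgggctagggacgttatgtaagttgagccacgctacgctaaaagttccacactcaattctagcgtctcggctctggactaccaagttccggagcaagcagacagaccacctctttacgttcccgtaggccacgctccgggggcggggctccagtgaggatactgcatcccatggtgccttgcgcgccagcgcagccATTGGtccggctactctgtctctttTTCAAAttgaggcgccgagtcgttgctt
In MKI67 a TTTGAA and an ATTGG overlap by 1 base and form 1 run of capitals. TTTGAA was found in 4 of the 8 members with an entry in the promoter table, against 13.6% of all 27305 promoters in it, and CCAAT was found in 7 of the 8, against 33.0% of all. Both were found together in 4 of the 8, against 4.85% of all promoters. These matches describe letters in these windows and no value in the authors' tables measures promoter activity. AURKA has no entry in the promoter table, so its promoter bases were neither shown nor counted.

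The first 30 transcribed bases are shown for 3 members whose start lies under listed windows, with the core letters of the usual m6A motif in capitals: GGAC, or the same with A in place of either or both of its G bases. TOP2A and CENPE, the latter with a GGAC, also had listed windows there and are not shown. The bases of CENPF lie at chr1:214603195-214603224 (plus strand), those of PLK1 at chr16:23678889-23678918 (plus strand) and those of KIF11 at chr10:92593130-92593159 (plus strand).
CENPF: agaagcgggcgaattgggcaccggtggcgg
PLK1: ggaggctctgctcggatcgaggtctgcagc
KIF11: agtttctggggattcgggcggAGACgagat
On the transcribed strand, 3 of 8 members held such letters in these 30 bases, against 33.4% of all promoters in the table. CENPF and PLK1 had a window over these bases in all 4 of the authors' deposited tables. Of those windows, only that of CENPF in the sgMETTL16-2 replicate 2 table was enriched, with a fold enrichment of 4.13 (FDR 0.0145). That window held 151 bases between 214603189 and 214613731, so its enrichment cannot be placed on the bases shown.

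Table size ran from 70002 to 79372 windows and from 14872 to 15212 genes, and the median window was 121 bases long throughout. All 14 monocytic and myeloid markers looked for were listed in every table, among them CD33, CD14 and SPI1. Of the markers of other blood cells, 1 of 5 T cell genes (CD2) and 1 of 5 erythroid genes (ALAS2) were listed. A listed window gives no RNA level.

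The members differed widely in the share of their listed windows that was enriched, which is not a share of the transcript. Since depth is unknown, a window that was not enriched does not show that m6A was absent. Of 44 MKI67 windows in the authors' deposited tables, 33 were enriched, of 30 NUMA1 windows 15, and of 70 CENPF windows 24. TOP2A had 3 enriched of 32, AURKA 3 of 17, AURKB 2 of 13, PLK1 2 of 16 and KIF11 2 of 25, and none of the 51 CENPE windows was enriched. Over all 9 genes, 27.71% and 29.33% of the windows in the sgMETTL16-1 tables (replicates 1 and 2) and 26.58% and 29.51% in the sgMETTL16-2 tables were enriched, against 8.096%, 11.89%, 10.24% and 12.27% of all windows. The enrichment itself was modest. The median fold enrichment of the members' enriched windows was 1.45, 1.55, 1.74 and 1.535 in the 4 tables in the same order, against 1.78, 1.92, 1.88 and 1.89 for all enriched windows. Among enriched member windows, those of KIF11 in the replicate 1 tables had the highest fold enrichment in their tables, on few bases, with 3.96 over 180 bases in the sgMETTL16-1 replicate 1 table and 6.08 over 210 bases in the sgMETTL16-2 replicate 1 table, ending 1045 and 1075 bases before the 3′ end. CENPE windows reached a fold enrichment of 8.17, in the sgMETTL16-1 replicate 1 table, but the smallest FDR of IP over input among them was 0.234.

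**Figure D1:**
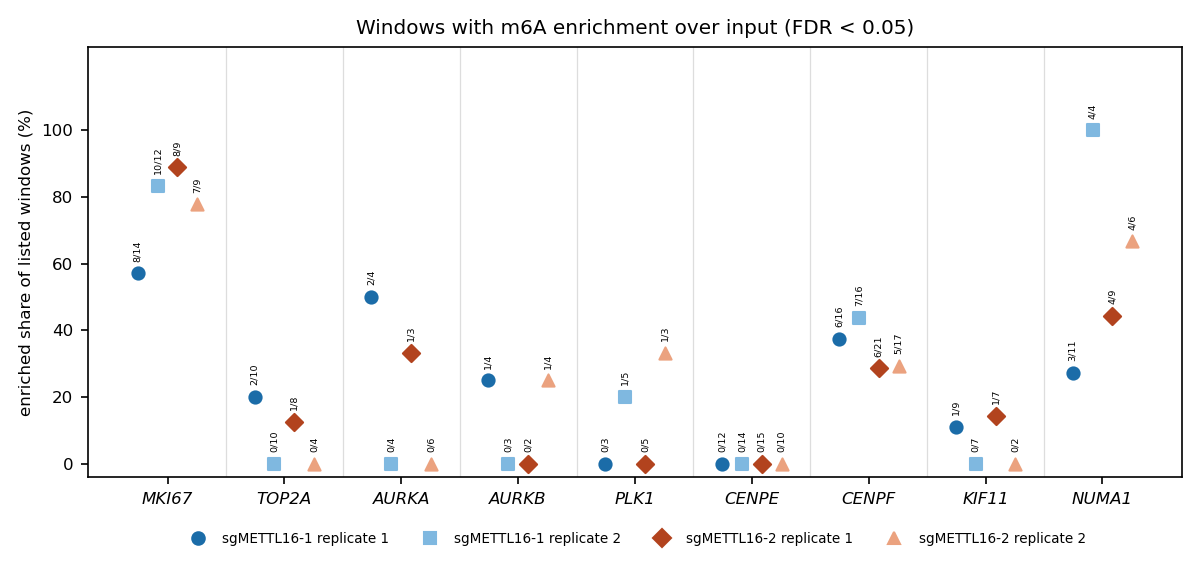
Share of each gene's listed windows (y axis, percent) with m6A enrichment over input at an FDR under 0.05, for 9 genes (x axis) in the 4 deposited tables (symbols), with enriched and listed windows as a fraction beside each point. MKI67 stands high in all 4 tables, with 7 to 10 enriched windows, and CENPE is at 0 in all 4.

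Calls of a difference fell on 5 of the 9 genes and split by gene. MKI67 and NUMA1 held all 11 windows called higher, 6 and 5, and neither had a window called lower. TOP2A and CENPF held 5 windows called lower each and AURKA held 1, and none of the 3 had a window called higher. AURKB, PLK1, CENPE and KIF11 had no call in any table. In the sgMETTL16-1 replicate 1 table, 2 of 83 member windows were called lower (2.41%, against 0.281% of all windows) and 0 higher (against 0.0743%). In the sgMETTL16-1 replicate 2 table, 1 of 75 was called lower (1.333%, against 0.167%) and 2 higher (2.667%, against 0.583%). In the sgMETTL16-2 replicate 1 table, 8 of 79 were called lower (10.13%, against 0.965%) and 4 higher (5.063%, against 0.875%). In the sgMETTL16-2 replicate 2 table, 0 of 61 were called lower (against 0.149%) and 5 higher (8.197%, against 0.586%). Nothing is read from these shares, because the same calls chose the genes. Counted by gene, 2, 1, 3 and 0 members had a window called lower in the 4 tables in that order (against 1.39%, 0.76%, 4.17% and 0.682% of listed genes), and 0, 2, 2 and 2 had one called higher (against 0.368%, 2.51%, 3.66% and 2.52%).

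The lower and higher calls differed in kind, and those over all genes did so too. Over all genes, 52 of 59, 394 of 416, 573 of 663 and 390 of 410 windows called higher were enriched in the 4 tables. Of those called lower, 179 of 223, 65 of 119, 340 of 731 and 58 of 104 were enriched. For the 9 members the counts were as follows. All 11 windows called higher were enriched, with a median length of 1590 bases (360 to 3898) and log2 fold changes between 0.18 and 0.55. Among enriched windows, 2 of 23, 0 of 22, 3 of 21 and 0 of 18 members' windows were called lower in the 4 tables (against 2.79%, 0.766%, 4.38% and 0.676% of all enriched windows) and 0, 2, 4 and 5 higher (against 0.809%, 4.64%, 7.38% and 4.54%). Of the 11 windows called lower 5 were enriched and 6 were not, with a median length of 210 bases (61 to 1378) and log2 fold changes between -1.88 and -0.35. Of the 9 to 12 enriched member windows of 500 bases or more in each table, 0, 2, 4 and 4 were called higher, against 0.647%, 7.64%, 13.6% and 7.84% of all such windows, and 1, 0, 1 and 0 were called lower, against 2.87%, 0.204%, 4.64% and 0.295%. The median log2 fold change of those long member windows was -0.19, 0.17, 0.19 and 0.15, against -0.04, 0.17, 0.17 and 0.17 for all of them, so in 3 of the 4 tables long enriched windows as a whole sat above 0. With a two-sided p alone, 7 of the 11 higher calls and 6 of the 11 lower calls stayed past the threshold. With the median of the enriched windows of a table also set to 0, which lowers every value in 3 of the 4 tables, 0 of the 11 higher and 9 of the 11 lower calls stayed.

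**Figure D2:**
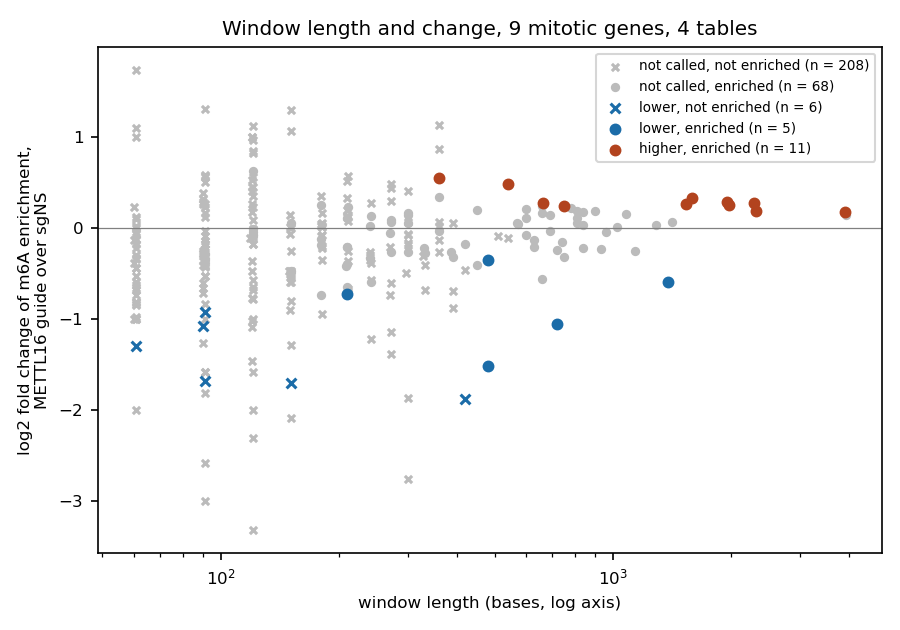
Log2 fold change of m6A enrichment, METTL16 guide over sgNS (y axis), against window length in bases (x axis, log scale) for all 298 windows of the 9 genes in the 4 deposited tables. Circles are enriched windows and crosses are not enriched. The 11 windows called higher are enriched and small in change, between 0.18 and 0.55, and the 11 called lower reach -1.88 and include 6 that are not enriched.

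Among all windows of the 9 genes, enriched or not, the median log2 fold change was -0.12, -0.13, -0.38 and -0.0026 in the 4 tables in the same order, against 0 for all windows in each. Log2 fold changes were below 0 in 65.06%, 61.33%, 68.35% and 50.82% of member windows, against 46.91%, 46.55%, 48.53% and 46.05% of all windows. For enriched windows alone the members' medians were -0.22, 0.08, 0.06 and 0.13, against -0.04, 0.13, 0.12 and 0.14 for all enriched windows. With every window counted, the members lay farthest below the background in the sgMETTL16-2 replicate 1 table. With enriched windows alone that distance was smaller in the sgMETTL16-2 replicate 1 and sgMETTL16-1 replicate 2 tables, wider in the sgMETTL16-1 replicate 1 table and near 0 either way in the sgMETTL16-2 replicate 2 table.

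**Figure D3:**
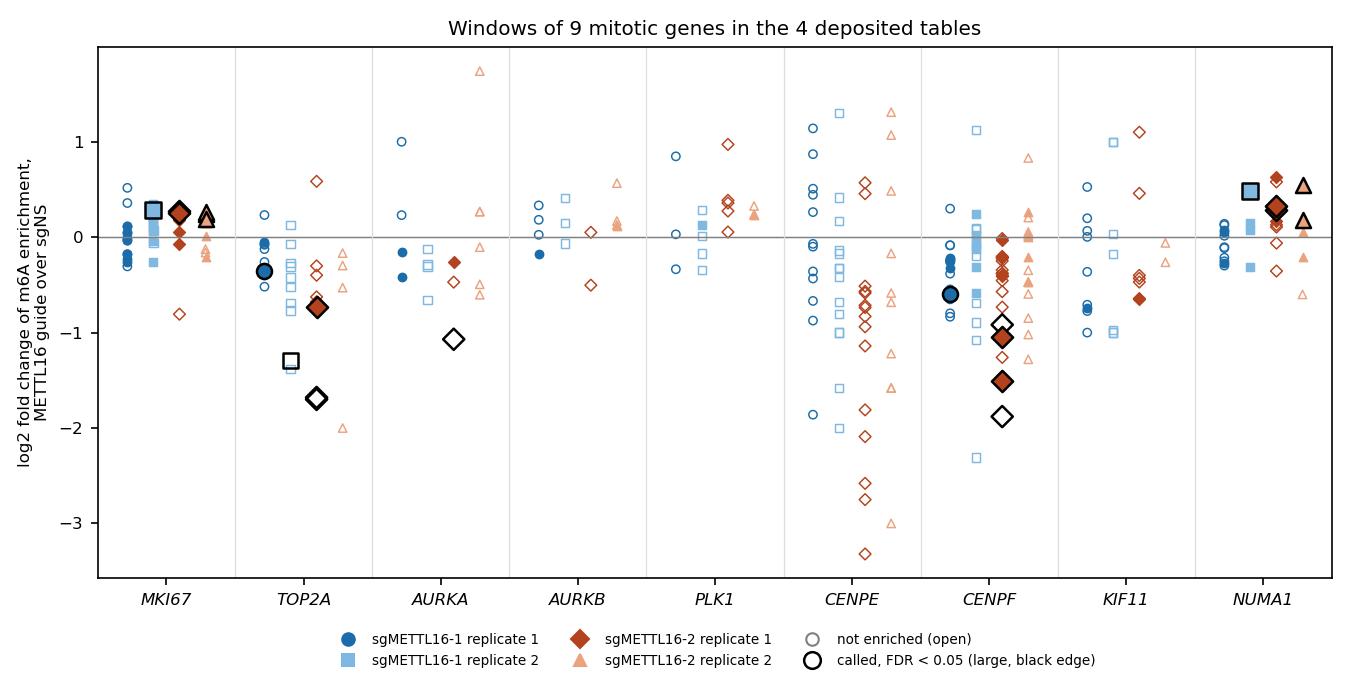
Log2 fold change of m6A enrichment, METTL16 guide over sgNS (y axis), of every listed window of the 9 genes (x axis) in the 4 deposited tables (symbols). Filled symbols are enriched windows, and large symbols with a black edge are called. MKI67 and NUMA1 calls lie above 0, TOP2A, CENPF and AURKA calls below 0, and the widest scatter is in CENPE, between -3.32 and 1.31, with no call.

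MKI67, on the minus strand of chromosome 10 (RefSeq gene 128096659 to 128126423, GRCh38), had its enriched windows in the 3′ part of the gene. The nearest listed window to the 5′ end began 12855 bases from it. Between 128102686 and 128109276, a span of 6591 bases, every window in every deposited table was a single uninterrupted block. MKI67 is known for a long exon of tandem repeats, and exon borders were not used here. Within it 6 of 10, 7 of 8, 6 of 6 and 5 of 6 windows were enriched in the sgMETTL16-1 replicate 1, sgMETTL16-1 replicate 2, sgMETTL16-2 replicate 1 and sgMETTL16-2 replicate 2 tables. All 6 MKI67 calls fell in this span and all were higher. The mean log2 fold change over its listed bases was 0.02, 0.21, 0.21 and 0.19 in the 4 tables, and 4 of 10, 7 of 8, 6 of 6 and 5 of 6 windows were above 0. The sgMETTL16-1 replicate 1 table thus stood apart, with a mean near 0 and no call, while the other 3 tables lay close together. The long enriched windows of all genes, described above, had medians of -0.04, 0.17, 0.17 and 0.17 in the same order. The 4 tables as a whole thus differed in the same way, so this pattern is not read as particular to MKI67.

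The MKI67 window with the smallest FDR of the difference ran over 1948 bases from 128103704 to 128105651 in the sgMETTL16-1 replicate 2 table, with a log2 fold change of 0.29 (FDR 2.4e-06) and a fold enrichment of 1.56. In the sgMETTL16-2 replicate 1 table, the windows 128102775 to 128103435 (log2 fold change 0.27, FDR 0.0331) and 128107179 to 128109157 (0.26, FDR 0.00178) were called. The sgMETTL16-2 replicate 2 table called 3, the windows 128103584 to 128104333 (0.24, FDR 0.0457), 128104423 to 128105951 (0.27, FDR 0.000407) and 128106041 to 128108348 (0.19, FDR 0.017). The calls lie side by side along the span and cover different bases of it in part. In the sgMETTL16-1 replicate 1 table the single-block windows ran between -0.31 and 0.52, and its highest, 128106910 to 128107119 with 0.52 (FDR 0.163), was short, not enriched and not called. Just outside the threshold was the neighbouring window 128103075 to 128103435 in the sgMETTL16-1 replicate 2 table, at 0.35 (FDR 0.0562). After the shift by the median of enriched windows, the 6 called MKI67 values came to between 0.05 and 0.15 and none passed the threshold.

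Closer to the 3′ end, MKI67 had 2 windows that were enriched in all 4 deposited tables and called in none. The window listed as 128097859 to 128098668 in the sgMETTL16-1 replicate 1 table had log2 fold changes of 0.12, -0.04, 0.19 and -0.20 in the 4 tables. The neighbour listed there as 128098818 to 128102626 had -0.22, 0.21, -0.07 and 0.01. The sign of neither held from replicate to replicate. The most enriched MKI67 window of each table had a fold enrichment of 1.56, 2.02, 2.16 and 2.05, at 128097859 to 128098668, 128097710 to 128098668, 128106011 to 128106790 and 128098039 to 128098668. In 3 of the 4 tables it was thus the same 3′ window, and in the sgMETTL16-2 replicate 1 table it lay inside the long span.

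NUMA1, on the minus strand of chromosome 11 (RefSeq gene 72002864 to 72080542), likewise had every call higher, and the fold enrichment of its most enriched window was 1.83, 2.21, 2.14 and 2.15 in the 4 deposited tables. In the sgMETTL16-1 replicate 2 table the window 72003284 to 72004296, near the 3′ end, had a log2 fold change of 0.48 (FDR 0.0135), and in the sgMETTL16-2 replicate 2 table the window 72003284 to 72003991 had 0.55 (FDR 0.0245). The sgMETTL16-2 replicate 1 table listed 2 shorter windows there, 72003254 to 72003374 (0.63, FDR 0.451) and 72003901 to 72003991 (0.58, FDR 0.348), which were not called. In the sgMETTL16-1 replicate 1 table the window 72003284 to 72003493 had 0.14 (FDR 0.655). All of these values lay above 0. Further upstream the sgMETTL16-2 tables called the windows 72009022 to 72014821 (0.28, FDR 0.0126) and 72014880 to 72017772 (0.33, FDR 0.00759) in replicate 1 and the window 72009112 to 72018187 (0.18, FDR 0.0331) in replicate 2. The sgMETTL16-1 replicate 2 table had 0.15 (FDR 0.148) over 72007230 to 72016050, with its enriched window further upstream, 72016109 to 72018921, at -0.31 (FDR 0.315). The sgMETTL16-1 replicate 1 table had values of both signs there, 0.07 (FDR 0.655) over 72014671 to 72016080 and -0.27 (FDR 0.655) over 72013951 to 72014281, its most enriched NUMA1 window, with 3 windows that were not enriched between -0.30 and -0.10. Over the listed bases between 72012895 and 72016260 the mean log2 fold change was -0.06, 0.13, 0.30 and 0.18 in the 4 tables.

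The upstream NUMA1 windows overlap LOC100128494, which the tables list on the other strand of the same bases. In the sgMETTL16-2 replicate 1 table its window 72014351 to 72016645 was also called higher (0.32, FDR 0.00245), and it shares 1504 bases with the NUMA1 window 72014880 to 72017772. In the sgMETTL16-2 replicate 2 table its window 72014291 to 72016586 had 0.12 (FDR 0.561). The library kit keeps strand, per the labels' protocols, but no source used here says whether the counting used it. The reads of the 2 genes therefore cannot be told apart there. The 3′ NUMA1 windows do not overlap it. The RefSeq table also names pseudogenes of MKI67, AURKA and AURKB (MKI67P1, AURKAP1, AURKAP2 and AURKBP1), and reads shared with such copies would make those genes' values uncertain.

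**Figure D4:**
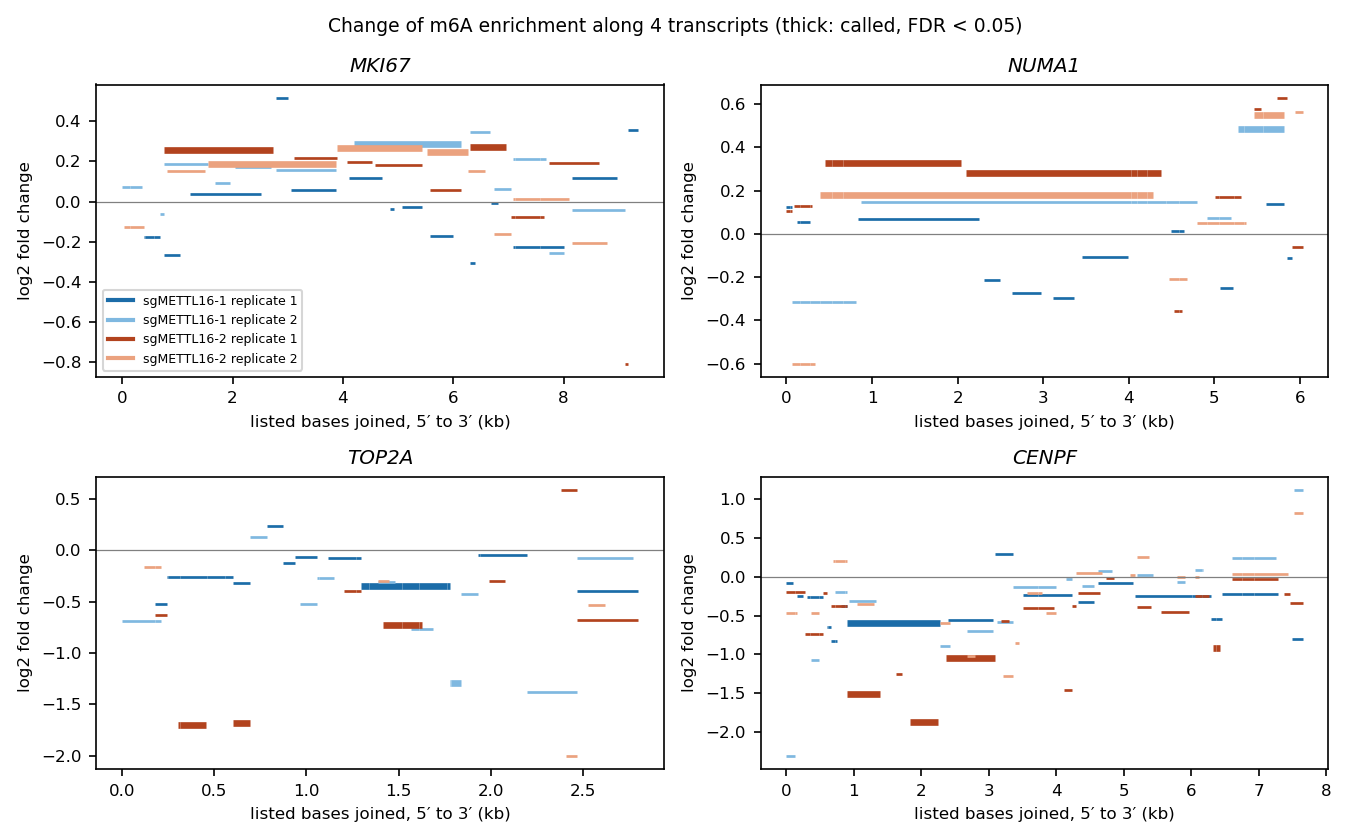
Log2 fold change of m6A enrichment, METTL16 guide over sgNS (y axis), along the bases listed in any table, joined from 5′ to 3′ (x axis, kb), for MKI67, NUMA1, TOP2A and CENPF in the 4 deposited tables (colours). Each bar is a window block and thick bars are called windows. In MKI67 3 of the 4 tables run above 0 along most of the long single-block span (means 0.21, 0.21 and 0.19). Long enriched windows of all genes have medians of 0.17, 0.17 and 0.17 in the same 3 tables. In CENPF the called bars lie below 0, down to -1.88 in the sgMETTL16-2 replicate 1 table.

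TOP2A, on the minus strand of chromosome 17 (RefSeq gene 40388525 to 40417896), pointed the other way. Of its windows 9 of 10, 9 of 10, 7 of 8 and 4 of 4 lay below 0 in the 4 deposited tables, with medians of -0.19, -0.47, -0.65 and -0.41. Its m6A enrichment was thin, with 2 enriched windows in the sgMETTL16-1 replicate 1 table, 1 in the sgMETTL16-2 replicate 1 table and 0 in both replicate 2 tables. The 2 enriched windows that were called cover the same part of the transcript. These were 40392330 to 40398598 in the sgMETTL16-1 replicate 1 table (log2 fold change -0.35, FDR 0.0209, fold enrichment 1.39) and 40392723 to 40396386 in the sgMETTL16-2 replicate 1 table (-0.73, FDR 8.32e-05, fold enrichment 1.53). The replicate 2 tables listed shorter windows there, with -0.77 (FDR 0.105) over 40392663 to 40395493 and -0.31 (FDR 0.658) over 40396326 to 40396416 for sgMETTL16-1 and -0.30 (FDR 0.65) over 40396356 to 40396416 for sgMETTL16-2. None of these was enriched or called, and all were below 0.

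The other 3 TOP2A calls were on windows without enrichment, so they compare IP over input where the authors' table shows no peak. They were 40391587 to 40392074 in the sgMETTL16-1 replicate 2 table (-1.29, FDR 0.0195, 61 bases), and 40411152 to 40411242 (-1.68, FDR 0.00457, 91 bases) and 40413487 to 40416016 (-1.70, FDR 0.00501, 151 bases) in the sgMETTL16-2 replicate 1 table. The window 40411152 to 40411242 was listed with the same bases in the sgMETTL16-1 replicate 1 table, at -0.32 (FDR 0.655). At the 3′ end of TOP2A the windows were not enriched in any table, with log2 fold changes of -0.40, -0.07, -0.68 and -0.53 in windows 331, 301, 331 and 91 bases long. Only 153 of 2801 listed TOP2A bases were listed in all 4 tables, and over those the mean log2 fold change was -0.42, -0.25, -0.68 and -0.41.

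CENPF, on the plus strand of chromosome 1 (RefSeq gene 214603195 to 214664571), had its calls in replicate 1 tables alone. Windows below 0 numbered 15 of 16, 11 of 16, 21 of 21 and 10 of 17 in the 4 deposited tables. The lowest value, -2.31 (FDR 0.29), was that of a 5′ window of 121 bases in the sgMETTL16-1 replicate 2 table that was not enriched. Of the 5 calls 4 lay in the span 214640110 to 214642804, 2695 bases in which every listed window was a single block. Over its listed bases the mean log2 fold change was -0.48, -0.57, -1.34 and -0.74, and 15 of its 16 windows lay below 0, the exception being 214642534 to 214642804 in the sgMETTL16-1 replicate 1 table at 0.30 (FDR 0.655). The span was found by the same rule on blocks as in MKI67 and is described after its values were seen. Called there were 214640110 to 214641487 in the sgMETTL16-1 replicate 1 table (-0.59, FDR 0.0275, fold enrichment 1.76) and, in the sgMETTL16-2 replicate 1 table, 214640110 to 214640589 (-1.51, FDR 4.17e-06, fold enrichment 2.28), 214641038 to 214641457 (-1.88, FDR 8.91e-05, not enriched) and 214641696 to 214642415 (-1.05, FDR 2.04e-06, fold enrichment 1.92).

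In the sgMETTL16-1 replicate 2 table the same CENPF span held 4 windows between -0.89 and -0.31, 2 of them enriched, and in the sgMETTL16-2 replicate 2 table it held 4 windows between -1.28 and -0.35, none of them enriched. The smallest FDR of the difference among these 8 was 0.234. The listed bases differed, with 85.68%, 43.45%, 67.94% and 24.53% of the span listed in the 4 tables. The CENPF window nearest to its 3′ end that was enriched, listed as 214657103 to 214663943 in the sgMETTL16-1 replicate 1 table, had values of both signs. It was enriched in all 4 tables, with fold enrichments of 1.91, 2.01, 2.24 and 1.76, and its log2 fold changes were -0.22, 0.24, -0.03 and 0.03 with no call. Between the 2 regions, the sgMETTL16-2 replicate 1 table called 214655364 to 214656983 (-0.92, FDR 0.0407), 91 bases without enrichment.

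CENPE, the other kinetochore gene, had 10 to 15 windows per deposited table, none enriched and none called. Its log2 fold changes spread from -3.32 to 1.31, with medians of -0.08, -0.37, -0.83 and -0.63 in the 4 tables. The smallest FDR of the difference was 0.0603, for 103148862 to 103149280 in the sgMETTL16-2 replicate 1 table at -2.75. The tables thus show large values for CENPE on short windows of at most 391 bases, and none that passed the threshold.

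The 3 mitotic kinases had 7 enriched windows of 46 and a single call. AURKA was called lower in the sgMETTL16-2 replicate 1 table over 56383171 to 56386285 on chromosome 20 (-1.07, FDR 0.0316), a window of 90 bases in 3 blocks that was not enriched. The overlapping window 56383111 to 56386344 in the sgMETTL16-1 replicate 1 table was enriched (fold enrichment 1.45) and had -0.41 (FDR 0.655), and 56384323 to 56386344 in the sgMETTL16-2 replicate 2 table had 0.27 (FDR 0.65). At the 3′ side of AURKA, bases listed in all 4 tables (330 bases) had means of -0.15, -0.33, -0.31 and -0.40. Among the enriched AURKA windows, the one with the highest fold enrichment was 56369656 to 56370541 in the sgMETTL16-1 replicate 1 table, at 1.74, with a log2 fold change of -0.15 (FDR 0.655).

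AURKB, on chromosome 17, had 2 to 4 windows per deposited table, with log2 fold changes between -0.50 and 0.57 and a smallest FDR of the difference of 0.322. Its enriched windows were 8205290 to 8206569 in the sgMETTL16-1 replicate 1 table (fold enrichment 1.42, log2 fold change -0.18) and 8207586 to 8210596 in the sgMETTL16-2 replicate 2 table (1.32 and 0.12). PLK1, on chromosome 16, had 3 to 5 windows per table between -0.34 and 0.97, with a smallest FDR of 0.387. Its enriched windows lay in the same place in both replicate 2 tables, 23682109 to 23684061 for sgMETTL16-1 (fold enrichment 1.25, log2 fold change 0.13) and 23682139 to 23684061 for sgMETTL16-2 (1.42 and 0.23). Windows over the PLK1 start had log2 fold changes of 0.85, -0.17, 0.97 and 0.24 in the 4 tables, none of them enriched or called. Its last 3′ window in the sgMETTL16-2 replicate 1 table, at 0.36 (FDR 0.659), shares 61 bases with a window of ERN2 on the other strand. KIF11, the spindle motor on chromosome 10, had 2 to 9 windows between -1 and 1.10 with a smallest FDR of 0.577. Its enriched 3′ windows, 92654171 to 92654350 in the sgMETTL16-1 replicate 1 table and 92654111 to 92654320 in the sgMETTL16-2 replicate 1 table, had -0.74 (FDR 0.655) and -0.65 (FDR 0.577).

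Between the 2 replicate tables of a guide, windows were taken as the same when each shared at least 0.5 of its bases with the other. For sgMETTL16-1, 25 member windows of 8 genes matched and 0 were called in both tables in 1 direction, against 0.0449% of all 20031 matched windows called lower in both and 0.02% called higher. For sgMETTL16-2, 27 member windows of 8 genes matched and 2 were called higher in both, against 0.529% of all 21192, and 0 lower, against 0.0613%. Those 2 were the MKI67 windows 128107179 to 128109157 in replicate 1 and 128106041 to 128108348 in replicate 2, and the upstream NUMA1 windows 72009022 to 72014821 and 72009112 to 72018187. Of the 25 matched windows of sgMETTL16-1, 10 were below 0 in both tables, 3 above 0 in both and 12 of opposite signs, and of the 27 of sgMETTL16-2, 6 were below 0 in both, 9 above 0 in both and 12 of opposite signs. Neither shared call passed with the shift by the median of enriched windows, with an FDR under 0.01 or with an overlap of 0.8.

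Other genes of mitosis were 129 of 135 symbols in 7 lists, with 2699 windows in the authors' deposited tables. Their lower and higher calls were of the same 2 kinds. As given above, higher calls over all genes were likewise more often enriched than lower calls in each table. Of the 27 windows called lower, on 20 genes, 20 were not enriched, with a median length of 240 bases and log2 fold changes between -2.71 and -0.29. All 15 windows called higher, on 10 genes, were enriched, with a median length of 661 bases and log2 fold changes between 0.22 and 0.86. By table, 3, 0, 20 and 4 windows were called lower (0.3793%, 0%, 2.747% and 0.6814% of the lists' windows, against 0.281%, 0.167%, 0.965% and 0.149% of all windows). Called higher were 0, 7, 5 and 3 (0%, 1.18%, 0.6868% and 0.5111%, against 0.0743%, 0.583%, 0.875% and 0.586%). The median log2 fold change of the lists' windows was -0.06, 0, -0.13 and 0. The sgMETTL16-2 replicate 1 table thus held 20 of the 27 lower calls of these genes and 8 of the 11 of the 9 members, and it also called the most windows of all genes, 0.965% lower.

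By list and in the sgMETTL16-2 replicate 1 table of the authors, 4 of 11 listed spindle kinesins had a window called lower, KIF14, KIF20B, KIF23 and KIF2A, and 0 one called higher, where 4.17% of all genes with a window had one called lower and 3.66% one called higher. Of 16 mitotic kinases and phosphatase regulators 3 had one called lower, BORA, CCNB2 and CDK1, the kinase that drives entry into mitosis, and 0 higher. None of the called windows of BORA, CCNB2 and CDK1 was enriched, nor were those of KIF20B, KIF23 and KIF2A, while that of KIF14 was. Of 23 condensation and cohesion genes 4 had one called lower and 1, NCAPH2, higher. The lower windows of RAD21, SMC4 and TOP2B were enriched and that of SMC3 was not. The RAD21 call turned round between tables. It was lower here, at -0.29 (FDR 0.0479), and higher over nearly the same bases in the sgMETTL16-1 replicate 2 table, at 0.32 (FDR 0.0457). In the remaining lists of the same table, 4 of 31 kinetochore and centromere genes had one called lower and 1 higher. Of 17 spindle assembly and pole genes 1 had one called lower and 1 higher. Of 12 passenger complex and checkpoint genes 1 had one called lower and 1 higher. Of 19 genes of the anaphase-promoting complex 0 had one called lower and 1 higher. The other tables, sgMETTL16-1 replicate 1, sgMETTL16-1 replicate 2 and sgMETTL16-2 replicate 2, had fewer calls over all genes. There, 0, 0 and 0 of the kinesins, 0, 0 and 1 of the kinases and regulators and 3, 0 and 2 of the condensation and cohesion genes had a window called lower, against 1.39%, 0.76% and 0.682% of all genes. Called higher were 0, 3 and 1 of the condensation and cohesion genes and 0 of the kinesins, kinases and regulators, against 0.368%, 2.51% and 2.52%. Of these genes, RAD21, SMC4, TOP2B and TPX2 are described after their values were seen. SMC4, a condensin subunit, had an enriched window called lower over nearly the same bases in both replicate 1 tables, -0.67 (FDR 2.24e-07) for sgMETTL16-1 and -1.28 (FDR 2e-15) for sgMETTL16-2, tables that may share sgNS libraries. TOP2B, the paralogue of TOP2A, had enriched windows called lower in the same 2 tables, with log2 fold changes between -0.42 and -0.31. CENPB, which binds centromeric DNA, was the only list gene whose window was called the same way by both replicates of a guide, higher with 0.35 (FDR 4.57e-08) and 0.35 (FDR 5.01e-06) for sgMETTL16-2, and it was also called higher in the sgMETTL16-1 replicate 2 table, 0.50 (FDR 8.91e-07). TPX2, which activates AURKA at the spindle, was called higher over the same bases in both replicate 2 tables, 0.41 (FDR 2.04e-05) for sgMETTL16-1 and 0.46 (FDR 5.89e-07) for sgMETTL16-2, tables that may also share sgNS libraries.

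Of the member windows matched and enriched in all 4 deposited tables, the one with the highest mean fold enrichment was the 3′ CENPF window described above. Among the other mitotic genes, 28 had a window matched in all 4 tables and enriched in at least 1, and these were ranked by the Euclidean distance between their 4 log2 fold changes and those of CENPF. FOXM1, a transcription factor of mitotic genes, was nearest at a distance of 0.14, with log2 fold changes of -0.16, 0.17, -0.13 and 0.03 in the 4 tables. SMC1A, a cohesin subunit, followed at 0.19 with -0.24, 0.22, 0.11 and 0.16, and CDC25A, a phosphatase that activates cyclin-dependent kinases, at 0.26 with -0.34, 0.08, -0.12 and 0.17. The 3 were chosen for their likeness to CENPF in these same values, so their shared signs follow from the choice.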

How the data were processed

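The aligner was STAR and the genome build GRCh38, per the submitters' processing notes. Not given in the sources used here are the STAR version, the peak caller, the annotation and the choice of sgNS libraries. Per the file headers, a row of the 4 deposited tables is a transcript window with its blocks. Used as deposited by the authors were the log2 fold change between a METTL16 guide and sgNS, its FDR on a log10 scale, its p-value, and the FDR and p-value for IP against input, also as log10 (treated as a score, since values run far below those of ordinary p-values), and the fold enrichment, a ratio of IP over input. The deposited p-value of the difference was read as one-sided. Over the windows with the strongest enrichment (log10 p under -50) its largest value per table was 0.405 to 0.483. Weaker windows could have larger values, such as 0.728 for the CENPE window 103180442 to 103181399 in the sgMETTL16-1 replicate 2 table. Windows with values that large could not be called under the shift. Depth per library is unknown, and so is the precision it gives. Replicate numbers of tables were taken from the sample descriptions.

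The members and gene lists were chosen with earlier results of these data known. No test was run here for the main calls: a call is the authors' FDR under 0.05, adjusted over the whole table. For the two-sided p-value and the shift, new p-values were derived from the deposited ones. Their FDRs were then computed here over each whole table. Windows of 2 tables matched when on the same strand, with the same gene name and at least 0.5 of the bases of each shared, 1 to 1. Means along a gene weight each listed base equally. Named were all members, their most enriched and called windows, and list genes called in both tables of a guide. Alternatives were a minimum change of 1 in log2, an FDR of 0.01, enriched windows alone, a two-sided p-value, a shift by the median of enriched windows with two-sided p-values from a normal approximation, other overlaps, and either replicate left out. The steps were checked on simulated data. Starts are given from 1. Python 3.11.15, pandas 2.3.3, numpy 2.4.6, scipy 1.17.1 and matplotlib 3.10.9 were used. Sequences are from RefSeq, GRCh38.p14. A few list results are not reported here.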

Additional observations from a re-analysis of the deposited data

How the results depend on the processing

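No paired analysis was possible because the tables hold comparisons and no value per library. For sgMETTL16-1 replicate 1 (2 lower, 0 higher), the lower count was 0 with an FDR of 0.01, with a minimum change of 1 in log2 (the fold minimum), with a two-sided p and with the shift. For sgMETTL16-1 replicate 2 (1 lower, 2 higher), the lower count was 0 with an FDR of 0.01, with enriched windows alone and with a two-sided p, and the higher count was 1 with an FDR of 0.01 and 0 with the fold minimum and with the shift. For sgMETTL16-2 replicate 1 (8 lower, 4 higher), the lower count was 3 with enriched windows alone. It was 6 with an FDR of 0.01, with the fold minimum and with a two-sided p. The higher count was 2 with an FDR of 0.01, 3 with a two-sided p, and 0 with the fold minimum and with the shift. For sgMETTL16-2 replicate 2 (0 lower, 5 higher), the higher count was 1 with an FDR of 0.01, 2 with a two-sided p, and 0 with the fold minimum and with the shift. For calls shared by both tables of a guide, leaving out a replicate gave 1 to 2 lower and 0 to 2 higher for sgMETTL16-1 and 0 to 8 lower and 4 to 5 higher for sgMETTL16-2. The 2 shared higher calls of sgMETTL16-2 were 0 with an FDR of 0.01 and with an overlap of 0.8, and, in alternatives chosen after seeing the data, 1 with a two-sided p and 0 with the shift. The members' median log2 fold change, -0.125, -0.129, -0.38 and -0.0026 in the 4 tables, was -0.219, 0.0828, 0.0563 and 0.1335 with enriched windows alone, and -0.181, 0.0308, -0.256 and -0.263 with 1 window per gene. Of the 22 called windows, 13 stayed called with a two-sided p (7 higher, 6 lower) and 9, all lower, with the shift, and no direction turned. The shift also makes the test two-sided. Unknown depth and 2 tables per guide limit every statement on replicates.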
